A study of Mus musculus with 12 samples.

Results

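The genes described here are the nuclear genes for the subunits of the mitochondrial oxidative phosphorylation complexes. They were taken by symbol from the platform annotation: Nduf genes of the A, B, C, S and V series, Sdha to Sdhd, the Uqcr, Cox4 to Cox8 and Atp5 genes, Cyc1 and Cycs. The rule found 80 of the 19057 genes with a probe, on 122 probes, and each gene was represented by its brightest kept probe, by mean log2 intensity. A filter on dim probes kept 77 of them among the 15395 genes tested, and Cox4i2, Cox6a2 and Cox8c did not pass it. By complex there were 35 members of complex I, 4 of complex II, 9 of complex III with cytochrome c, 16 of complex IV and 16 of complex V. One member of the complex I set, Ndufs5-ps, is annotated as a transcribed pseudogene.

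The series measured total RNA of mouse carotid arteries on one-colour Illumina arrays 1 day after the left common carotid was partly ligated, a model of disturbed flow. KO LCA is the ligated left artery of mice without fibulin-5, an elastic fibre protein encoded by Fbln5 (FibVKO in the labels, which the design text also calls a knockdown), and KO RCA their untouched right artery. WT LCA and WT RCA are the same arteries of wild type mice. Each group has 3 arrays, and every sample carries the strain label C57Bl/6J. The labels give no age or sex, no deleted exons and no promoter or cell type for the deletion. The right artery comes from an operated mouse, so it is not a sham control. Whether the 3 arrays within a group are 3 separate mice is not stated, so p-values here reflect only variation among these samples, possibly technical.

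Values are linear probe intensities from 72.4 to 10230, with an array median between 93.5 and 93.6. The 95th percentile of 1501 probes for olfactory and vomeronasal receptor genes was used as a background level on each array. It lay at 126.5 on WT LCA replicate 3 and between 95.7 and 106.7 on the other arrays. The Fbln5 probe ran from 80.6 to 97.4 and never exceeded it, and therefore gives no check of the knockout. One array stood apart: on WT LCA replicate 3 only 15.98% of genes exceeded the level, against 28.6% to 48.5% on the other 11 arrays. Its median correlation with the other arrays was 0.637. Counts of genes above background on all 3 WT LCA arrays depend on the higher level of this array as well as on the genes' intensities. The carotid label was checked against 8 smooth muscle markers. Acta2 ran from 287 to 1007 over the 12 arrays, while the contractile genes Cnn1 and Myh11 were at or near background. Cnn1 exceeded the level on no array of KO LCA, WT LCA or WT RCA. Tagln ran from 88.3 to 117.7, Lmod1 from 85.9 to 97.2 and Des from 85.0 to 100.3. Of 10 endothelial markers, 8 in KO LCA, 8 in KO RCA, 5 in WT LCA and 7 in WT RCA exceeded the level on all 3 arrays. Among them Pecam1 ran from 753 to 3593 and Vwf from 243 to 519, while Kdr ran from 84.3 to 99.7. Which layers of the artery wall the RNA came from was not tested.

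Oxidative phosphorylation passes electrons from NADH through complex I, or from succinate through complex II, to complex III, then by cytochrome c to complex IV, which reduces oxygen. Complexes I, III and IV pump protons across the inner mitochondrial membrane, and complex V, the ATP synthase, uses the gradient to make ATP. Some core subunits of complexes I, III and IV and membrane subunits of complex V are encoded by mitochondrial DNA, which the rule leaves out. Arterial endothelial and smooth muscle cells are known to rely strongly on glycolysis, and their mitochondria also serve as a source of reactive oxygen species in altered flow.

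Most members were measurable in these arteries. In KO LCA 67 of 80 members exceeded the background level on all 3 arrays, in KO RCA 66, in WT LCA 36 and in WT RCA 59. On WT LCA replicate 3 alone, where the level was 126.5, 39 members exceeded it, against 59 to 74 on the other arrays. Over all 12 arrays 32 members were always above it, 44 were above it on some arrays, and 4 on none, namely Cox4i2, Cox6a2, Cox7b2 and Cox8c. All 4 belong to complex IV. The members varied more between arrays of 1 group than the typical gene did: their median SD was 0.20 log2 units in KO LCA, 0.19 in KO RCA, 0.35 in WT LCA and 0.28 in WT RCA, against 0.08, 0.08, 0.13 and 0.09 for all genes tested. The sets were not matched for intensity. Only 15.98% to 48.5% of all genes with a probe exceeded the background level on an array, and the floor of the values compresses differences of dim genes. Whether the members vary more than equally bright genes was not tested.

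**Figure D1:**
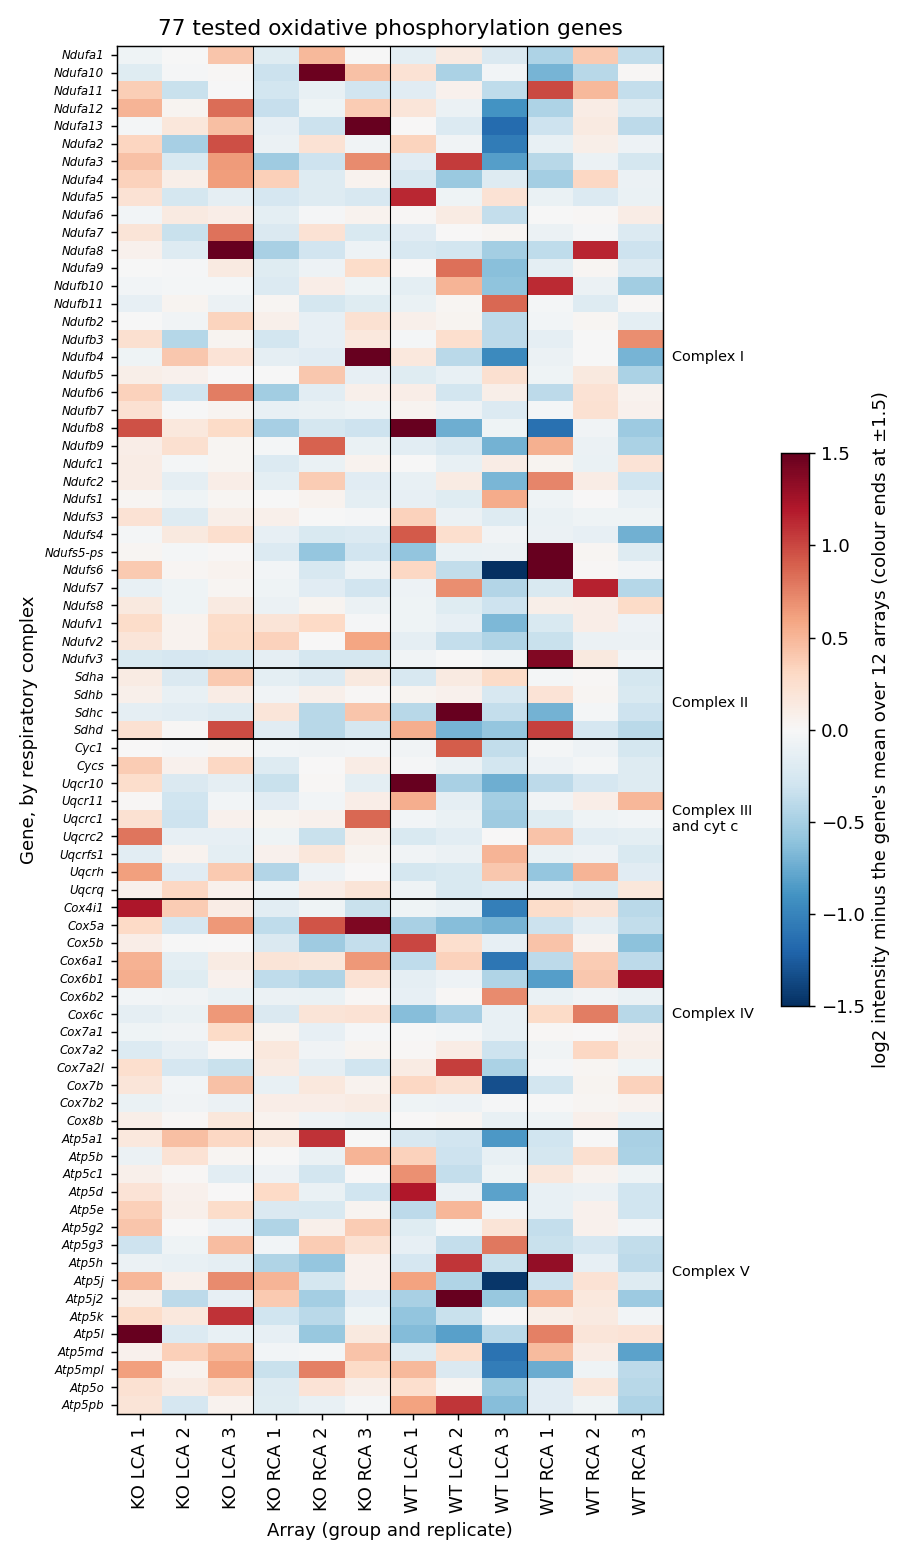
Log2 intensity of each of the 77 tested members (rows, by complex) on each array (columns, by group), as the difference from the gene's own mean over 12 arrays, with colours ending at 1.5 log2 units either way. WT LCA replicate 3 is below the mean for 62 members, and single dark cells mark members that are high on 1 array only.

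In the ligated artery, members tended to have higher values in KO than in WT mice, and none passed the test. Of 77 members, 54 had a log2 difference above 0 between KO LCA and WT LCA, where 47.2% of all genes tested did. The median difference was 0.17 over the members and -0.01 over all genes. At an unadjusted p under 0.05, 11 members (14.3%) were higher and 0 were lower, against 4.88% and 2% of all genes. After Benjamini-Hochberg adjustment over all genes in limma, 0 members passed, the smallest adjusted p being 0.421, and 0.0065% of all genes, which is 1 gene, passed. The values of KO LCA and WT LCA did not overlap in 15 members, of which 14 were higher in KO, against 8.24% of all genes higher and 5.54% lower. Among the 9567 genes left by a stricter filter, 52 of 73 members and 55.2% of all genes were above 0, and 15.1% of members and 6.69% of all genes were higher at an unadjusted p under 0.05.

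The 11 members came from all complexes except complex II: Ndufv1, Ndufv2, Ndufs8, Ndufa4 and Ndufa12, then Cycs and Uqcrq, then Cox4i1, then Atp5a1, Atp5k and Atp5l. In 7 of the 11 the lowest WT LCA value was that of replicate 3, the array that stood apart. Without that array 48 of 77 members were above 0 with a median of 0.10, and 6 were higher at an unadjusted p under 0.05 and 2 lower, against 3.69% and 3.49% of all genes. The count also moved with 2 other arrays: 7 members had an unadjusted p under 0.05 without KO LCA replicate 1, against 5.29% of all genes, and 20 without WT LCA replicate 1, against 11.1%. All 11 members kept a difference above 0 without WT LCA replicate 3, and 6 of them stayed under that p: Atp5k, Atp5l, Cycs, Ndufa4, Ndufv1 and Ndufv2. Summed cell markers were separated between these groups in some sets and overlapped in others. The summed intensity of the 8 smooth muscle markers ran from 1719 to 2454 in KO LCA and from 1018 to 1115 in WT LCA, with 4 of 8 above background on all 3 arrays in KO LCA and 1 of 8 in WT LCA, and with Cnn1 and Des at background in both. Acta2 made up much of this sum, at 820, 1007 and 726 in KO LCA and 326, 425 and 350 in WT LCA. Smtn reached 717 on KO LCA replicate 3. Of the 7 smooth muscle markers tested, 6 were above 0 and 1 below. The summed intensity of 7 fibroblast markers ran from 1167 to 1690.0 in KO LCA and from 782 to 1151 in WT LCA. Of these, 5 of 7 were above background on all 3 arrays in KO LCA. In WT LCA 1 of 7 was, where replicate 3 had the highest background level. All 7 were tested, and 6 were above 0 and 1 below. At an unadjusted p under 0.05, 4 of the 7 were higher and 0 lower, against 4.88% and 2% of all genes. The 5 adipocyte markers summed to 702 to 885 in KO LCA and 481 to 698 in WT LCA. In each group 1 of 5 was above background on all 3 arrays, and Lep and Plin1 were at background in both. Fabp4 had 427, 329 and 323 in KO LCA and 160, 117 and 302 in WT LCA. Of the 4 adipocyte markers tested, 3 were above 0 and 1 below. The 4 erythrocyte markers summed to 1377 to 2847 in KO LCA and 1372 to 1988 in WT LCA, and the 5 macrophage markers to 530.1 to 738 in KO LCA and 452 to 729 in WT LCA. Both sets overlapped. The 10 endothelial markers also overlapped, with sums of 2396 to 4941 in KO LCA and 2537 to 3088 in WT LCA, and 6 were above 0 and 4 below. The part of any of these cell types in the members' difference was not tested. These arrays cannot tell fewer cells of a type from less RNA per cell.

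**Figure D2:**
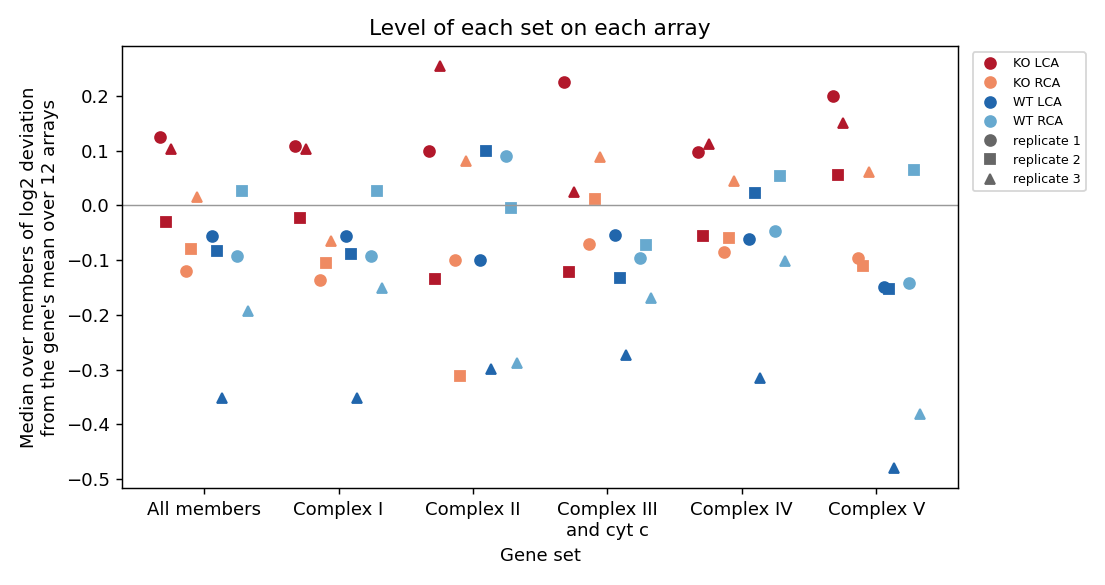
Median over the members of a set of the log2 deviation from each gene's mean over 12 arrays (vertical axis), for all members and for each complex (horizontal axis), with 1 point per array, coloured by group and shaped by replicate. KO LCA replicates 1 and 3 lie highest for all members, at 0.12 and 0.10, and WT LCA replicate 3 lowest, at -0.35.

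Array by array, the members' median deviation from their own means was 0.12, -0.03 and 0.10 in KO LCA, -0.12, -0.08 and 0.02 in KO RCA, -0.06, -0.08 and -0.35 in WT LCA and -0.09, 0.03 and -0.19 in WT RCA. The 3 KO LCA values lay above the 3 WT LCA values, and overlapped with those of both right arteries. On WT LCA replicate 3, 62 members (80.5%) were below their own mean, as were 57.2% of all genes. WT RCA replicate 3 came next with 61 members, and that array also had the second lowest share of genes above background, 28.6%. Brighter genes in general were low on WT LCA replicate 3. Over 9460 genes above background on at least 3 arrays the median deviation was -0.12 there, and -0.06 to -0.01 on the other arrays. Over all genes tested it was -0.03 on WT LCA replicate 3. On the KO side the counts ran from 18 on KO LCA replicate 3 to 58 on KO RCA replicate 1. Complex V had the widest range of medians, from -0.48 on WT LCA replicate 3 to 0.20 on KO LCA replicate 1.

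Ligation in KO mice was accompanied by slightly higher values of the members. Between KO LCA and KO RCA 56 of 77 members were above 0, against 48.2% of all genes, with a median log2 difference of 0.11 against -0.01. No member passed adjustment, with a smallest adjusted p of 0.707 and 0% of all genes passing. At an unadjusted p under 0.05, Atp5k, Cox4i1 and Cycs (3.90%) were higher and Cox7b2 (1.30%) was lower, against 2.83% and 4.09% of all genes. Cox7b2 was above background on no array and passed the filter on dim probes through KO RCA alone, the group where it is high, and nothing is read from its call in any comparison. It is the 1 tested member of which this holds. Without KO LCA replicate 1 the count was 2, against 4.83% of all genes, and without KO RCA replicate 2 it was 2, against 5.92%. The arteries did not overlap in 11 members that were higher and in Cox7b2, which was lower, against 8.43% and 11.4% of all genes. The 11 were Ndufb7, Ndufb8, Ndufs4, Ndufs5-ps, Ndufs6, Sdhd, Cyc1, Cox4i1, Cox5b, Atp5e and Atp5k. The summed smooth muscle markers ran from 1719 to 2454 in KO LCA and from 1292 to 1482 in KO RCA, without overlap, with 4 of 8 above background on all 3 arrays in KO LCA, 2 of 8 in KO RCA, and Des at background in both. Acta2 made up much of this sum, at 820, 1007 and 726 in KO LCA and 542, 572 and 702 in KO RCA. Smtn reached 717 on KO LCA replicate 3. Of the 7 smooth muscle markers tested, 4 were above 0 and 3 below, so the set had no common direction. The summed fibroblast markers ran from 1167 to 1690.0 in KO LCA and from 1043 to 1366 in KO RCA. Of the 7 fibroblast markers tested, 6 were above 0 and 1 below. At an unadjusted p under 0.05, 4 of them were higher and 0 lower, against 2.83% and 4.09% of all genes. Pi16, the marker below 0, had 265, 245 and 491 in KO LCA and 450, 462 and 762 in KO RCA. All 4 erythrocyte markers were below 0, with sums of 1377 to 2847 in KO LCA and 2071 to 5387 in KO RCA, and 2 had an unadjusted p under 0.05, among them Hba-a1 at -1.17 ± 0.39 (SE, adjusted p = 0.707). The summed adipocyte markers ran from 702 to 885 in KO LCA and from 469 to 567 in KO RCA, where Adipoq, Lep, Lpl and Plin1 were at background. Fabp4 had 427, 329 and 323 in KO LCA and 207, 143 and 93.4 in KO RCA. Of the 4 adipocyte markers tested, 2 were above 0 and 2 below, so this set had no common direction either. At an unadjusted p under 0.05, 2 of the 4 were higher and 0 lower, against 2.83% and 4.09% of all genes. The part of these cells in the members' difference was not tested.

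Ligation in WT mice gave no common direction. Between WT LCA and WT RCA 33 of 77 members were above 0, against 49.5% of all genes, with a median of -0.08 against -0.00. No member passed adjustment, with a smallest adjusted p of 0.542 and 0% of all genes passing. At an unadjusted p under 0.05, Ndufs4 (1.30%) was higher and Ndufs8 and Atp5l (2.60%) were lower, against 2.47% and 4.46% of all genes. The arteries did not overlap in 2 members that were higher and 5 that were lower, against 4.53% and 6.63%. Without WT LCA replicate 3 the median turned to 0.04, with 47 of 77 members above 0, 5 higher and 1 lower at an unadjusted p under 0.05, against 3.51% and 2.4% of all genes. The count was 7 without WT LCA replicate 1, against 12.9% of all genes, 6 without WT LCA replicate 2, against 8.16%, and 7 without WT RCA replicate 3, against 6.76%.

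In the untouched right artery the genotypes were close. Between KO RCA and WT RCA 42 of 77 members were above 0, against 51% of all genes, with a median of 0.03 against 0.00. No member passed adjustment, the smallest adjusted p being 1.00, and 0% of all genes passed. At an unadjusted p under 0.05, Ndufv2, Ndufa10, Cox5a and Atp5a1 (5.19%) were higher and Ndufs8 and Ndufv3 (2.60%) were lower, against 2.48% and 1.8% of all genes. The arteries did not overlap in 6 members higher and 6 lower, against 6.78% and 5.21%, and Cox7b2 is 1 of the 6 higher. The count was 2 when KO RCA replicate 2 was left out, against 4.47% of all genes, and also 2 when replicate 3 was, against 3.53%. The summed erythrocyte markers ran from 2071 to 5387 in KO RCA and from 694 to 1894 in WT RCA, and their part in the members' values was not tested.

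The difference between the ligation effects, KO minus WT, had a median of 0.12 over the members and -0.01 over all genes, with 51 of 77 members above 0 against 47.2%. At an unadjusted p under 0.05, Ndufb7, Ndufs8, Cox4i1, Atp5k and Atp5l were above 0 and no member was below, against 2.23% and 1.32% of all genes. After adjustment 0 members and 0% of all genes passed, with a smallest adjusted p of 0.905. Without WT LCA replicate 3 the median was 0.01, with 3 members above 0 and 1 below at an unadjusted p under 0.05, against 1.97% and 2.37% of all genes. The count was 3 without KO LCA replicate 1 or WT RCA replicate 2, 9 without KO LCA replicate 2 or WT LCA replicate 1, and 8 without WT RCA replicate 3, against 2.86% to 5.15% of all genes. In 4 members, Atp5l, Atp5k, Ndufs5-ps and Ndufs8, KO LCA lay above WT LCA and KO RCA below WT RCA, both without overlap, while 0.526% of all genes had opposite orders of this kind. The comparisons share arrays, since each group enters 3 of the 5.

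**Figure D3:**
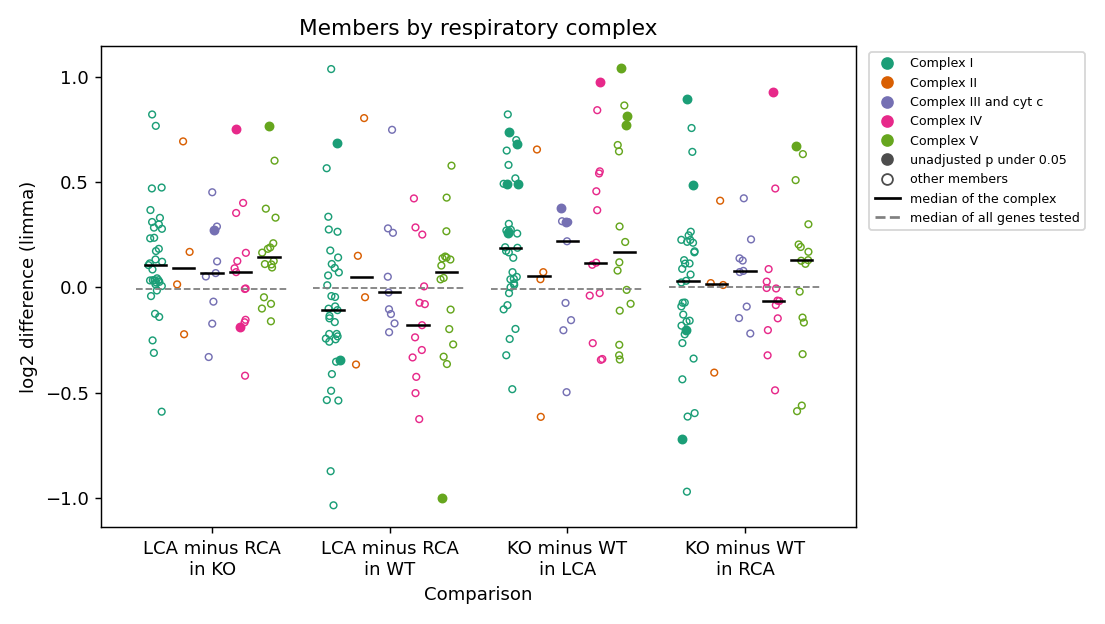
Log2 difference (vertical axis) of each tested member by complex in the 4 comparisons of pairs of groups (horizontal axis), with filled points for an unadjusted p under 0.05, black bars for the median of a complex and a dashed line for the median of all genes tested. In KO LCA against WT LCA the medians of complexes I, III and V lie at 0.19, 0.22 and 0.17, and all filled points are above 0.

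Complex I takes electrons from NADH, and its flavin site and first iron-sulphur clusters sit in the peripheral arm on subunits such as Ndufv1 and Ndufv2. In KO LCA against WT LCA, 28 of 35 members were above 0 with a median of 0.19, where 47.2% of all genes were above 0. At an unadjusted p under 0.05, 5 (14.3%) were higher and 0 lower, against 4.88% and 2% of all genes. Without WT LCA replicate 3, Ndufa4, Ndufv1 and Ndufv2 of these stayed under that p. The 35 follow the gene symbols and include the pseudogene Ndufs5-ps and Ndufa4, now known as a subunit of complex IV. Ndufv1, the subunit that binds FMN and NADH, had intensities of 196, 168 and 197 in KO LCA, 185, 200.2 and 160.1 in KO RCA, 155, 149 and 102 in WT LCA and 139, 174 and 154 in WT RCA. All KO LCA values exceeded all WT LCA values, where replicate 3 was lowest, and the right arteries overlapped. The log2 difference was 0.49 ± 0.16 (SE, adjusted p = 0.515), and 0.30 without WT LCA replicate 3. Ndufv2, its iron-sulphur partner, had 231, 211 and 248 in KO LCA, 259, 204 and 306 in KO RCA, 185, 158 and 148 in WT LCA and 161, 192 and 191 in WT RCA. Here KO exceeded WT without overlap in both arteries. The difference was 0.49 ± 0.15 (SE, adjusted p = 0.449) in LCA and 0.48 ± 0.15 (SE, adjusted p = 1.00) in RCA.

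Ndufs8, which carries iron-sulphur clusters near the quinone site, had 127, 110.2 and 126 in KO LCA, 109, 119 and 108 in KO RCA, 110, 102 and 92.6 in WT LCA and 122, 123 and 140.2 in WT RCA. KO LCA lay above WT LCA and KO RCA below WT RCA, both without overlap, and WT LCA lay below WT RCA. The differences were 0.26 ± 0.09 (SE, adjusted p = 0.552) between genotypes in LCA, -0.20 ± 0.09 (SE, adjusted p = 1.00) in RCA and -0.34 ± 0.09 (SE, adjusted p = 0.542) for ligation in WT. Only 1 WT LCA array exceeded background for this probe. Ndufs4, an accessory subunit needed for a stable peripheral arm, had 156, 176 and 189 in KO LCA, 146, 135 and 138 in KO RCA, 300.2, 189 and 153 in WT LCA and 149, 146 and 96.4 in WT RCA. WT LCA exceeded WT RCA without overlap, by 0.68 ± 0.24 (SE, adjusted p = 0.684), and by 0.41 without WT LCA replicate 1. KO LCA also exceeded KO RCA. Its other 3 kept probes differed by -0.02 to 0.16 in the WT comparison.

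Ndufv3, a small accessory subunit of the peripheral arm, had 154, 152 and 155 in KO LCA, 165, 151 and 150.2 in KO RCA, 174, 180 and 175 in WT LCA and 474, 200.3 and 176 in WT RCA. The high value on WT RCA replicate 1 set the WT RCA mean, and all KO values on each side lay below the WT values of that side. The difference between KO RCA and WT RCA was -0.72 ± 0.29 (SE, adjusted p = 1.00), and -0.27 without WT RCA replicate 1, and its other 2 kept probes gave -0.38 and -0.10. Ndufa10, an accessory subunit, had 208, 232 and 239 in KO LCA, 188, 653 and 319 in KO RCA, 274, 169 and 228 in WT LCA and 145, 176 and 239 in WT RCA. KO RCA replicate 2 was the single high array, the right arteries overlapped, and the difference between KO RCA and WT RCA was 0.89 ± 0.39 (SE, adjusted p = 1.00), and 0.42 without that array. Ndufa12, another accessory subunit, had 327, 236 and 412 in KO LCA, 181, 219 and 299.7 in KO RCA, 260.3, 216 and 123 in WT LCA and 167, 248 and 201 in WT RCA. KO LCA and WT LCA overlapped, with a difference of 0.73 ± 0.31 (SE, adjusted p = 0.702), and 0.42 without WT LCA replicate 3.

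Among accessory subunits of the membrane arm, Ndufb6 had 282, 179 and 376 in KO LCA, 155, 199 and 233 in KO RCA, 236, 183 and 235 in WT LCA and 168, 258 and 230.3 in WT RCA. KO LCA and KO RCA overlapped, the difference being 0.47 ± 0.27 (SE, adjusted p = 0.770), and 0.22 without KO LCA replicate 3. Ndufb7 had 123, 104 and 107 in KO LCA, 96.5, 97.3 and 100 in KO RCA, 107, 99.6 and 90.99 in WT LCA and 102, 123 and 109 in WT RCA. It was at background in KO RCA, so KO LCA was at least 1.09-fold higher than KO RCA (adjusted p = 0.752) and KO RCA at least 1.09-fold lower than WT RCA (adjusted p = 1.00). Ndufa4, named for complex I and now known as a subunit of complex IV, had 506, 426 and 615 in KO LCA, 512, 348 and 413 in KO RCA, 339, 272 and 349 in WT LCA and 280.4, 496 and 375 in WT RCA. KO LCA exceeded WT LCA without overlap, by 0.68 ± 0.23 (SE, adjusted p = 0.509), and by 0.75 without WT LCA replicate 3, while the right arteries overlapped.

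**Figure D4:**
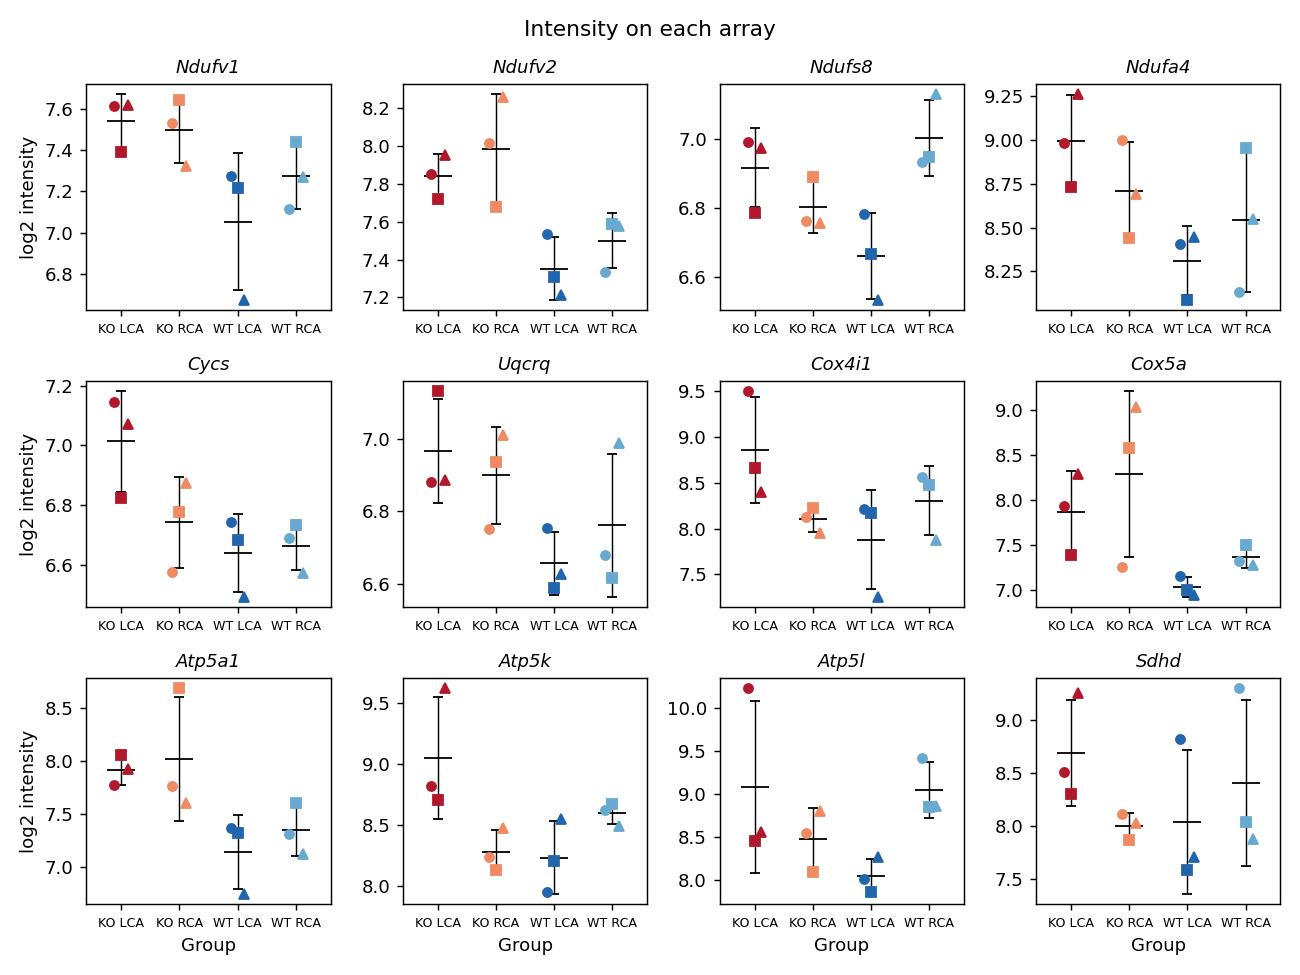
Log2 intensity (vertical axis, with its own range in each panel) of 12 members on each array (groups along the horizontal axis); bars are group means with SD over 3 arrays, and marker shapes are replicates. KO LCA lies above WT LCA without overlap in 11 of the panels, and Sdhd overlaps. Most panels show members with an unadjusted p under 0.05 in that comparison, so they do not stand for the set. Over all 77 tested members this order without overlap held in 14.

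Complex II, succinate dehydrogenase, is the one complex shared with the citric acid cycle and has no mitochondrially encoded subunit. None of its 4 members had an unadjusted p under 0.05 in any comparison. Sdha, the flavoprotein that oxidises succinate, had 133, 104 and 159.7 in KO LCA, 109.6, 105 and 135 in KO RCA, 103, 134 and 148 in WT LCA and 119, 123 and 102 in WT RCA. Sdhb, the iron-sulphur subunit, had 111, 97.8 and 114 in KO LCA, 102, 111 and 106 in KO RCA, 108, 109.9 and 89.3 in WT LCA and 122, 108 and 89.6 in WT RCA. The groups overlapped for both, and Sdhb stayed close to background. Sdhc, a membrane anchor, had 426, 417 and 406 in KO LCA, 527, 349.5 and 621 in KO RCA, 349.5, 2044 and 362 in WT LCA and 286, 456 and 374 in WT RCA. Apart from WT LCA replicate 2 all arrays lay between 286 and 621, and the WT ligation difference of 0.80 ± 0.58 (SE, adjusted p = 0.693) was -0.04 without that array. Its other kept probe gave 0.64. Sdhd, the other anchor, had 364, 317 and 613 in KO LCA, 276, 233 and 260.3 in KO RCA, 453, 192 and 209 in WT LCA and 633, 262 and 235 in WT RCA. KO LCA exceeded KO RCA without overlap, by 0.69 ± 0.43 (SE, adjusted p = 0.774), and by 0.41 without KO LCA replicate 3, while replicate 1 stood high in both WT groups.

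Complex III passes electrons from quinol to cytochrome c, the soluble carrier that also triggers apoptosis when it leaves the mitochondrion. Cycs, which encodes cytochrome c, had 142, 113 and 135 in KO LCA, 95.4, 109.6 and 117 in KO RCA, 107, 103 and 89.98 in WT LCA and 103, 106 and 95.1 in WT RCA. KO LCA exceeded WT LCA without overlap, by 0.37 ± 0.11 (SE, adjusted p = 0.436), and by 0.30 without WT LCA replicate 3. The ligation difference in KO was 0.27 ± 0.11 (SE, adjusted p = 0.707), with overlap. Its other 2 kept probes differed by -0.04 and 0.21 between KO LCA and WT LCA, and were both below 0 for ligation in KO, at -0.19 and -0.03. Cyc1, cytochrome c1 of complex III, had 109.9, 108 and 111 in KO LCA, 106, 105 and 106 in KO RCA, 105, 205 and 84.3 in WT LCA and 107, 104 and 91.3 in WT RCA. KO LCA exceeded KO RCA without overlap, and WT LCA replicate 2 was the highest array.

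Uqcrq, a small subunit next to cytochrome b, had 118, 140.1 and 118 in KO LCA, 108, 122 and 129 in KO RCA, 108, 96.3 and 98.9 in WT LCA and 103, 98.2 and 127 in WT RCA. KO LCA exceeded WT LCA without overlap, by 0.31 ± 0.11 (SE, adjusted p = 0.611), and its other kept probe gave -0.04. Uqcrc1, a core protein, had 151, 105 and 136 in KO LCA, 133, 136 and 236 in KO RCA, 126, 121 and 89.9 in WT LCA and 114, 124 and 126 in WT RCA. KO RCA exceeded WT RCA without overlap, by 0.42 ± 0.23 (SE, adjusted p = 1.00), and by 0.15 without KO RCA replicate 3. Uqcrfs1, the Rieske iron-sulphur protein, had 93.8, 109 and 94.4 in KO LCA, 109.6, 117 and 107 in KO RCA, 101, 98.4 and 149 in WT LCA and 97.6, 99.1 and 88.8 in WT RCA. It lay near background, was highest on WT LCA replicate 3, and KO RCA exceeded WT RCA without overlap, by 0.23 ± 0.14 (SE, adjusted p = 1.00). The hinge protein gene Uqcrh had 302, 176 and 259 in KO LCA, 146, 187 and 197 in KO RCA, 164, 169 and 260.2 in WT LCA and 132, 282 and 175 in WT RCA. Its groups overlapped in every pair, with a ligation difference of 0.45 ± 0.30 (SE, adjusted p = 0.786) in KO, and of 0.28 without KO LCA replicate 1.

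Complex IV, cytochrome c oxidase, has tissue isoforms of several nuclear subunits. Cox4i1, the widely expressed form of the regulatory subunit 4, had 722, 405 and 337 in KO LCA, 279.8, 299 and 247 in KO RCA, 297, 288 and 153 in WT LCA and 377, 356 and 235 in WT RCA. KO LCA exceeded both KO RCA and WT LCA without overlap. The difference was 0.97 ± 0.33 (SE, adjusted p = 0.539) against WT LCA and 0.75 ± 0.33 (SE, adjusted p = 0.719) against KO RCA. Without WT LCA replicate 3 the difference from WT LCA was 0.66, and without KO LCA replicate 1 that from KO RCA was 0.43. Cox5a, a subunit on the matrix side, had 244, 168 and 312 in KO LCA, 152, 381 and 527 in KO RCA, 142, 128 and 122 in WT LCA and 159, 181 and 155 in WT RCA. It was higher in KO LCA than in WT LCA without overlap, by 0.84 ± 0.39 (SE, adjusted p = 0.739), WT LCA lay below WT RCA without overlap, and the right arteries overlapped, with a difference of 0.93 ± 0.39 (SE, adjusted p = 1.00), which was 0.55 when KO RCA replicate 3 was left out and 1.45 when replicate 1 was. Cox6c had 658, 674 and 1137 in KO LCA, 625, 827 and 841 in KO RCA, 466, 515 and 670.2 in WT LCA and 883, 1236 and 541 in WT RCA. Its groups overlapped, with a ligation difference of -0.63 ± 0.31 (SE, adjusted p = 0.684) in WT, which was -0.35 without WT RCA replicate 2 and -0.94 without WT RCA replicate 3.

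Forms typical of heart and skeletal muscle, brown fat, lung or testis stayed at or near background in these arteries. Cox4i2, the lung form of subunit 4, was not above background on any array, with 85.2, 85.7 and 86.3 in KO LCA, 86.2, 93.8 and 89.4 in KO RCA, 86.5, 83.4 and 90.2 in WT LCA and 90.3, 87.2 and 85.7 in WT RCA. Cox6a2, the heart and muscle form, had 96.7, 93.3 and 84.6 in KO LCA, 85.3, 87.6 and 88.7 in KO RCA, 86.7, 86.7 and 84.2 in WT LCA and 85.5, 86.3 and 85.7 in WT RCA, whereas Cox6a1, its widely expressed counterpart, had 550.5, 346 and 416 in KO LCA, 436, 429 and 599 in KO RCA, 293, 487 and 181 in WT LCA and 290.3, 499 and 292 in WT RCA. Cox6a1 was above background on all 12 arrays and Cox6a2 on none. Cox7a1, the muscle form of subunit 7a, had 90.8, 91.1 and 116 in KO LCA, 97.3, 87.00 and 93.6 in KO RCA, 94.1, 92.9 and 87.6 in WT LCA and 95.9, 95.2 and 99.2 in WT RCA, and exceeded background on KO LCA replicate 3 only. Cox7a2, the widely expressed form, had 96.4, 102 and 112 in KO LCA, 124, 108 and 115 in KO RCA, 112, 119.9 and 89.4 in WT LCA and 108, 138 and 118 in WT RCA. It exceeded background on 10 of 12 arrays. Cox8b, the muscle and brown fat form of subunit 8, had 95.3, 90.5 and 101 in KO LCA, 93.4, 85.9 and 83.99 in KO RCA, 89.8, 91.5 and 83.3 in WT LCA and 85.6, 94.7 and 83.6 in WT RCA, and exceeded background on 1 array, of KO LCA.

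The testis form Cox7b2 had 83.6, 86.4 and 83.9 in KO LCA, 95.7, 96.2 and 97.3 in KO RCA, 85.7, 84.7 and 88.5 in WT LCA and 88.8, 91.04 and 92.7 in WT RCA. It was below the background level on every array, so its ligation difference of -0.19 ± 0.04 (SE, adjusted p = 0.707) in KO is not taken as a difference in expression. Cox6b2 exceeded background on 1 array, WT LCA replicate 3, and Cox8c on none. Of 8 striated muscle markers 0 exceeded background on all 3 arrays of any group, and Ckm, Mb, Acta1, Myl2 and Tnnt3 exceeded it on no array. Of 7 brown fat markers, all were at background in KO RCA, WT LCA and WT RCA. In KO LCA, Dio2 was above background on 3 arrays, and Ucp1, Cidea, Cox7a1 and Cox8b were above it on 1 or 2. The brown fat markers summed to 663 to 712 in KO LCA and to 619 to 634 in WT LCA. Most of these probes lay at or near background. Dio2 had 132, 109 and 117 in KO LCA and 86.7, 86.6 and 87.4 in WT LCA. Cox7a1 and Cox8b in this list are themselves members, so the list is not independent of the set.

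Complex V makes ATP in its F1 head, on alpha and beta subunits, driven by the c ring in the membrane. Atp5a1, the alpha subunit, had 218, 266 and 243 in KO LCA, 217, 412 and 195 in KO RCA, 166, 160.4 and 107 in WT LCA and 159, 195 and 139 in WT RCA. KO LCA exceeded WT LCA without overlap, by 0.77 ± 0.28 (SE, adjusted p = 0.580), and by 0.57 without WT LCA replicate 3. In the right artery the difference was 0.67 ± 0.28 (SE, adjusted p = 1.00), with overlap, and 0.34 without KO RCA replicate 2. Its other kept probe gave 0.14 and 0.21. Atp5k, subunit e, which holds ATP synthase dimers together, had 450.3, 415 and 786 in KO LCA, 301, 280.1 and 355 in KO RCA, 247, 295 and 373 in WT LCA and 395, 407 and 360.4 in WT RCA. KO LCA exceeded KO RCA and WT LCA without overlap, and KO RCA lay below WT RCA without overlap. The differences were 0.81 ± 0.23 (SE, adjusted p = 0.421) against WT LCA and 0.77 ± 0.23 (SE, adjusted p = 0.707) against KO RCA, and its other kept probe gave 0.22 and 0.20. Without KO LCA replicate 3 they were 0.53 and 0.48 for the probe used.

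Atp5l, subunit g, the dimer partner of subunit e, had 1206, 352 and 377 in KO LCA, 373, 274 and 448 in KO RCA, 258, 232 and 307 in WT LCA and 685, 462 and 467 in WT RCA. KO LCA replicate 1 was far above the other arrays, and KO LCA exceeded WT LCA without overlap, with a difference in means of 1.04 ± 0.42 (SE, adjusted p = 0.661). WT LCA lay below WT RCA without overlap, with a ligation difference of -1.003 ± 0.42 (SE, adjusted p = 0.684). Its other 2 kept probes gave -0.08 and 0.72 between KO LCA and WT LCA, so the probes disagree. Without KO LCA replicate 1 the difference was 0.47. Atp5e, the epsilon subunit of the central stalk, had 494, 408 and 466 in KO LCA, 331, 328 and 397 in KO RCA, 294, 544 and 375 in WT LCA and 356, 403 and 314 in WT RCA. KO LCA exceeded KO RCA without overlap, by 0.37 ± 0.20 (SE, adjusted p = 0.753).

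Atp5g3, one of the genes for subunit c, had 173, 205 and 295 in KO LCA, 208, 281 and 251 in KO RCA, 198, 167 and 372 in WT LCA and 171, 179.8 and 166 in WT RCA. KO RCA exceeded WT RCA without overlap, by 0.51 ± 0.29 (SE, adjusted p = 1.00). Atp5pb, subunit b of the peripheral stalk, had 155, 114 and 141 in KO LCA, 119, 125 and 133 in KO RCA, 206, 284 and 86.96 in WT LCA and 120.2, 129.8 and 98.2 in WT RCA. WT LCA was spread widely and overlapped WT RCA, with a difference of 0.58 ± 0.35 (SE, adjusted p = 0.684), and its other 3 kept probes gave -0.04 to 0.02. Without WT LCA replicate 3 WT LCA lay above WT RCA with a difference of 1.07 (adjusted p = 0.145 in limma), and without WT LCA replicate 2 the difference was 0.21.

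The members are known in mammals as targets of the nuclear respiratory factors NRF1 and GABP, of which GABP binds ETS motifs, and of YY1. RefSeq windows (GRCm38.p6) of 250 bases before to 50 after the start were given for 65 of the 80 members, and were searched on both strands. The NRF1 motif, which is GCGCA and GCGC with 1 free base between them, was present in 16 of the 65 members (24.6%) and in 5.19% of all 27025 genes with a window. Its shorter core CGCATGCG, which overlaps it, was in 10 members (15.4%) and 2.07% of genes. The ETS motif CCGGAAG was in 16 members (24.6%) and 9.93% of genes, and the YY1 motif AAGATGGC in 10 (15.4%) and 3.19%. The members' windows had a median GC content of 58.0%, against 52.7% over all windows. The shorter core was chosen with these windows in view, and a match is not a binding site. Of the 11 members at an unadjusted p under 0.05 in KO LCA against WT LCA, 8 had a window. The 3 with an NRF1 or ETS match before the start are printed, 5′ to 3′ on the gene's strand. The share of all genes with a match before the start was not counted, so nothing is read from this number. Over the full windows Ndufs8 and Atp5k had 1 ETS match each and Atp5l 2, and those not wholly before the start are not shown. Capitals mark the NRF1 match in Atp5k at -50 to -41, the NRF1 core at -241 to -234 and the ETS match at -212 to -206 in Atp5l, and the NRF1 core at -61 to -54 in Cycs, counted from the start. The windows are chr5:108434400-108434649 for Atp5k, chr9:44920743-44920992 for Atp5l and chr6:50566570-50566819 for Cycs, all on the minus strand.
Atp5k: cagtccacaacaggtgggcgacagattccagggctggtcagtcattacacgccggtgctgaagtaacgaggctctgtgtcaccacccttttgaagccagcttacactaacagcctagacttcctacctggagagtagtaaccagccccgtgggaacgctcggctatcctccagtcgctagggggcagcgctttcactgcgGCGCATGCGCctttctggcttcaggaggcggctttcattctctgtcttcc
Atp5l: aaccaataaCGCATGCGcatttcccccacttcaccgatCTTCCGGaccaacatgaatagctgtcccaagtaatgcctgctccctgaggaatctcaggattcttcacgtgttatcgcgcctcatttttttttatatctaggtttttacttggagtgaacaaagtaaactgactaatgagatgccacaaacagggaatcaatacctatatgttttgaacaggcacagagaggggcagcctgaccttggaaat
Cycs: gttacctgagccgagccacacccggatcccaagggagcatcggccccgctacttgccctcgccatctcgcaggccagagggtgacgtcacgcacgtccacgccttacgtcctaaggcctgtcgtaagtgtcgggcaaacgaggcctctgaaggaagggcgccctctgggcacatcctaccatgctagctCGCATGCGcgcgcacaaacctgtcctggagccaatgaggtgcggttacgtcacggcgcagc

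The transcription factor gene Nrf1 itself had 118, 160.2 and 144 in KO LCA, 159, 150.3 and 131 in KO RCA, 119.6, 110.3 and 89.8 in WT LCA and 114, 121 and 135 in WT RCA. Its log2 difference was 0.40 ± 0.14 (SE) between KO LCA and WT LCA, with an adjusted p of 0.575, and 0.25 ± 0.14 in RCA, with an adjusted p of 1.00. WT LCA replicate 3 was again lowest, and KO LCA overlapped WT LCA. Among 15 biogenesis regulators 11 were tested, and 1 was higher and 0 lower at an unadjusted p under 0.05 in that comparison. Of all genes 4.88% were higher and 2% lower. The coactivator genes Ppargc1a and Ppargc1b were at background in all 4 groups. Tfb2m, a mitochondrial transcription factor, differed by 0.78 ± 0.39, adjusted p = 0.751, through KO LCA replicate 1, at 429 against 138 and 121 on the other KO LCA arrays.

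Among the genes of neighbouring pathways, none passed adjustment over all genes in any comparison. In KO LCA against WT LCA, 4.88% of all genes were higher and 2% lower at an unadjusted p under 0.05. Of 16 citric acid cycle genes, 11 were above 0 in this comparison with a median of 0.18, and 2 were higher and 0 lower at that p. They were Dld (0.35 ± 0.13, SE) and Pdha1 (0.33 ± 0.15), enzymes of the pyruvate dehydrogenase complex, with adjusted p = 0.618 and 0.715. Of 41 assembly factors tested, 20 were above 0 with a median of -0.00, and 3 were higher and 0 lower, among them Ttc19 (0.48 ± 0.13, complex III) and Cox18 (0.59 ± 0.20, complex IV), with adjusted p = 0.386 and 0.539. Of 12 glycolytic genes, 11 were above 0 with a median of 0.38, and 4 were higher and 0 lower. Those with the smallest p were Pfkp (0.57 ± 0.10, adjusted p = 0.114), a phosphofructokinase, and Gapdh (0.69 ± 0.16, adjusted p = 0.267). WT LCA replicate 3 was lowest for both. Without that array the citric acid cycle median was 0.03 with 0 genes called, where 3.69% of all genes were higher and 3.49% lower.

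For ligation in WT, 5 of 16 citric acid cycle genes, 20 of 41 assembly factors and 2 of 12 glycolytic genes were above 0. At an unadjusted p under 0.05, the counts higher and lower were 1 and 1, 1 and 1, and 0 and 6, where 2.47% and 4.46% of all genes were called. WT LCA replicate 3 moved with the glycolytic genes: their summed intensity was 1858, 2219 and 1323 in WT LCA and 1984, 2187 and 2478 in WT RCA. Without that array 0 glycolytic genes were higher and 2 lower, against 3.51% and 2.4% of all genes. In KO LCA against WT LCA without it, 2 were higher and 0 lower, against 3.69% and 3.49% of all genes, with a median of 0.15. For ligation in KO, 10 of 16, 23 of 41 and 8 of 12 were above 0, with counts of 1 and 1, 1 and 1, and 2 and 0. Of all genes 2.83% were higher and 4.09% lower at that p. For KO RCA against WT RCA, 10 of 16, 21 of 41 and 3 of 12 were above 0, with counts of 1 and 0, 1 and 1, and 0 and 2. Here 2.48% of all genes were higher and 1.8% lower.

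Some members were high on 1 array only. In 10 of 77 (13.0%) the highest array was at least 2 times the next, as it was in 8.81% of all genes tested. The largest ratio was 5.10, for Uqcr10, a small complex III subunit, at 1566 on WT LCA replicate 1 against 307 on the next array. Ndufs5-ps followed at 1362 on WT RCA replicate 1 and Sdhc at 2044 on WT LCA replicate 2. Ndufb8, a membrane arm subunit of complex I, reached 2197 on WT LCA replicate 1 against 930 on the next array. By array, 3 of the 10 were on WT RCA replicate 1, 2 each on WT LCA replicates 1 and 2 and KO RCA replicate 3, and 1 on KO RCA replicate 2. No single high array lay in KO LCA by this rule, nor on WT LCA replicate 3.

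Several members were measured by more than 1 kept probe, and the probes often disagreed. Of 27 such members, every other kept probe had the same sign as the probe used in 15 for KO LCA against WT LCA, in 16 for ligation in KO, in 18 for ligation in WT, in 18 for KO RCA against WT RCA and in 11 for the interaction. Of the 5 with an unadjusted p under 0.05 in KO LCA against WT LCA, this held for 2. Whether a probe also binds processed pseudogenes, which are common for this family, was not tested.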

How the data were processed

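Per the labels, RNA was extracted with a Qiagen kit and biotinylated cRNA was hybridised to one-colour Illumina arrays. The values deposited by the authors are linear probe intensity values for 45281 probes and 12 arrays. Each array holds nearly the same sorted values, as quantile normalization gives. No source used here gives the scanner software, the background step or the normalization tool. Values keep a floor above 0, so folds of dim genes are compressed.

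Of the probes, 34885 had 1 gene symbol in the platform annotation, 18 several and 10378 none. Probes at or above their array's median on at least 3 arrays were kept, and the kept probe with the highest mean log2 intensity stood for its gene, giving 15395 genes. A limma fit (version 3.58.1, R 4.3.3) to log2 intensity on 4 group means, with eBayes and 8 residual degrees of freedom, tested 5 comparisons, two-sided, with Benjamini-Hochberg adjustment over all genes and a threshold of 0.05. The code was tested on simulated data. SE is the moderated standard error.

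The genes named with all 12 values are, per complex, the 2 with the smallest p in each comparison of a pair of groups, all of complex II, Cyc1, Cycs and the isoform pairs, plus members named after their values were seen (Ndufv1, Ndufa10, Ndufa12). The members, lists and tests were chosen with earlier results of these data known. Nothing in the labels says that same-numbered arteries came from 1 mouse. The main fit has no replicate block. The alternatives were other filters, probe rules, scalings, pseudocounts, weights and blocks, and leaving out each array.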

Additional observations from a re-analysis of the deposited data

Results flagged for a closer look

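In 4 of 77 members the genotypes did not overlap in either artery and stood in opposite order, with KO LCA above WT LCA and KO RCA below WT RCA, as happened in either order in 0.526% of all genes tested. Atp5l had a difference between these effects of 1.60 log2 units, Ndufs5-ps of 1.24, Atp5k of 1.13 and Ndufs8 of 0.46. The difference itself was tested as the interaction and did not pass for any of them, with a smallest adjusted p of 0.905 in limma. Atp5l rests in part on KO LCA replicate 1 and Ndufs5-ps on WT RCA replicate 1, which was at 1362, and the Ndufs5-ps groups of the right artery were separated by 297 in KO against 300.01 in WT. The Ndufs8 groups of the left artery were separated only by 110.23 in KO against 109.99 in WT. For its probe 1 WT LCA array exceeded background. Atp5k's other kept probe gave 0.22 in LCA and 0.002 in RCA, where the probe used gave -0.32, and Atp5l's other 2 kept probes ran from -0.08 to 0.72 in LCA and from -0.51 to 0.04 in RCA, so those probes do not all show the opposite order.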

How the results depend on the processing

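No member passed an adjusted p of 0.05 in any of the 5 comparisons under any alternative run, and the direction of a median turned only for ligation in WT (without WT LCA replicate 3) and for KO RCA against WT RCA, where it lies near 0. With each array left out in turn, members at an unadjusted p under 0.05 numbered 2 to 5 for ligation in KO (4 with all arrays), 4 to 7 for ligation in WT (3), 7 to 20 for KO LCA against WT LCA (11), 2 to 6 for KO RCA against WT RCA (6) and 3 to 9 for the interaction (5). All genes called at that p ran over the same fits from 4.83% to 6.18%, 5.87% to 12.9%, 5.29% to 11.1%, 3.53% to 5.57% and 2.86% to 5.15%, against 6.92%, 6.94%, 6.88%, 4.28% and 3.55% with all arrays. The highest count, 20, came without WT LCA replicate 1, and the lowest of that comparison, 7, without KO LCA replicate 1. The members' median ran from 0.07 to 0.15, -0.15 to 0.035, 0.09 to 0.26, -0.01 to 0.09 and 0.01 to 0.22 in the same order. Genes passing adjustment, over all genes, ranged from 0 to 21 for KO LCA against WT LCA. Without WT LCA replicate 3 and WT RCA replicate 3 together, a choice made after seeing the data, 7 members had an unadjusted p under 0.05 for ligation in WT and 8 for the interaction, against 5.16% and 4.81% of all genes.

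For ligation in KO the count was 10 with array weights (11.8% of all genes), 9 with only those groups fitted (10.1%), 2 with eBayes trend and robust (7.68%) and 2 with intensity above the array minimum (6.38%). For ligation in WT it was 6 with array weights (6.90%) and 5 above the array minimum (7.996%). For KO LCA against WT LCA it was 7 with trend and robust (6.496%), and for the interaction 9 with array weights (4.995%). Above the array minimum the medians were 0.23 (ligation in KO), -0.20 (ligation in WT), 0.39 (KO LCA against WT LCA) and 0.33 (interaction). That setting stretches dim values by its construction, and the cause of the other shifts was not tested.

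The labels do not say whether same-numbered left and right arteries come from 1 mouse. Their deviations correlated at -0.01 to 0.04 in KO, against -0.06 to 0.06 between different numbers, and at 0.04 to 0.07 in WT, against -0.05 to 0.01. In WT every array thus correlated best with its own number, but in KO this did not hold. KO LCA replicate 2 correlated best with KO RCA replicate 1, at 0.06, and KO LCA replicate 1 least with its own number, at -0.01. Deviations from a mean of 3 arrays depend on each other, so these values cannot decide the pairing. With the number as a fixed replicate block the counts were 7 for ligation in KO (6.34% of all genes) and 5 for ligation in WT (6.55%). Members near background, and 3 arrays per group, limit what these arrays can show.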
